A study of Homo sapiens with 6 samples.

Results

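The comparison of siCAMSAP1 with a control siRNA in HEK293 cells, a line derived from human embryonic kidney, is described here across all genes. HEK293 cells grown in DMEM received a non-targeting control (NTC), an siRNA against circCAMSAP1 or an siRNA against circRAB3IP, all delivered with Lipofectamine RNAiMAX, and were lysed 48 hours later. Poly(A) RNA of 6 libraries was sequenced, 2 per group, and the comparison uses 4 of them, the 2 siCAMSAP1 and the 2 control libraries. The 2 siRAB3IP libraries were kept in the same model, and their values are given beside those of siCAMSAP1 for part of the genes. A gene given without them is not shown to be particular to siCAMSAP1. All 6 libraries came from cells that had been transfected, so untransfected cells are not part of the comparison. The libraries were chosen by the identifier in the header of each count column. Whether replicate libraries were separate cultures is not stated by any label. The p-values therefore weigh differences against the spread of these libraries alone, and that spread may be technical.

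The sources disagree on which library belongs to which group. The grouping used throughout is that of the authors' deposited tables, whose normalized columns each matched 1 count column in all 6 libraries. The titles of the sample records place 4 of the 6 libraries elsewhere, and the genotype field places 3 of the 6 elsewhere. Among the 4 libraries compared, control replicate 2 and siCAMSAP1 replicate 1 differ by title, and control replicate 2 and siCAMSAP1 replicate 2 differ by genotype field. Grouped by the titles, edgeR called 0 genes at an adjusted p of 0.05, with 441 genes at an unadjusted p under 0.05. Grouped by the genotype field it also called 0 genes, with 350 at an unadjusted p under 0.05. The sources used here do not settle which names are right, so each result below holds for the libraries as the authors' tables name them.

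Each library held between 37379217 and 39637733 fragments assigned to genes, and the 10 most abundant genes took 13.0% to 14.9% of them. A floor of 3 fragments stood for 0.0757 to 0.0803 CPM (counts per 1e6 fragments, scaled by the trimmed mean of M-values method). Markers chosen for HEK293 cells were present. KRT8, KRT18, VIM and NEFL were among them, and the 20 markers summed to 2150 and 2090 CPM in control and to 1780 and 1790 CPM in siCAMSAP1 (replicates 1 and 2, here and below). PAX2 (0.0254 to 0.218 CPM) and NEFM (0.0803 to 0.335 CPM), markers of the same list, were near the floor in the 4 libraries. Markers of blood and immune cells summed to 8.67 and 9.53 CPM in control and 11.3 and 13.0 in siCAMSAP1, and 2 of their 21 genes, CD3E and HBB, had no fragment in these 4 libraries. PTPRC, the pan-leukocyte marker CD45, stayed at a mean of 0.0363 CPM in control and 0.0258 in siCAMSAP1. Markers of other epithelial and unrelated lines summed to 5.97 to 7.52 CPM over the 4 libraries. Endothelial markers summed to 27.0 to 33.0 CPM and those of fibroblasts and smooth muscle to 33.2 to 51.7 CPM. In such bulk RNA fewer cells of a kind and less RNA per cell cannot be told apart.

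Circular RNAs arise when a downstream splice donor is joined to an upstream acceptor, and circCAMSAP1 is such a product of the CAMSAP1 gene. The linear CAMSAP1 mRNA encodes a protein that binds and stabilizes the minus ends of microtubules. Having no poly(A) tail, a circle is not expected in a poly(A) library, so these counts check neither its knockdown nor the labels. Much of what follows concerns NF-kB, a family of transcription factors held in the cytoplasm by inhibitory IkB proteins and released by signals from receptors such as those of the TNF family. Its target genes include those of its own inhibitors and of the subunits RELB and NFKB2.

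The host gene did not pass the test between siCAMSAP1 and control. CAMSAP1 (ENSG00000130559, hg19 chromosome 9, 138700333 to 138799074, minus strand) had 138 and 136 CPM in control, 139 and 138 in siCAMSAP1, and 156 and 150 in siRAB3IP. The 4 libraries compared lie within 3 CPM of each other and below both siRAB3IP libraries, and the log2 fold change was 0.02 ± 0.07 (SE; adjusted p = 0.95). RAB3IP, the host gene of the other circular RNA, had 57.5 and 62.5 CPM in control and 56.3 and 61.6 in siCAMSAP1 (log2 fold change -0.03 ± 0.08, adjusted p = 0.944). CAMSAP2, its paralog at microtubule minus ends, had 73.0 and 72.6 CPM in control and 81.5 and 86.7 in siCAMSAP1 (0.21 ± 0.08, adjusted p = 0.291), and CAMSAP3 had 16.5 and 14.8 against 20 and 14.5 (0.14 ± 0.14, adjusted p = 0.775). Adjusted p values throughout are those of edgeR's quasi-likelihood test, adjusted by Benjamini and Hochberg's method over all genes tested, and each ± after a log2 fold change is its standard error (SE). Of 26 genes of the CAMSAP family, the microtubule-severing katanins and other minus-end proteins, 0 were called by edgeR, 5 had an unadjusted p under 0.05, and DESeq2 called 1. Their median log2 fold change was -0.03, against 0.0 for all genes.

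Of 22331 genes tested, 210 differed between siCAMSAP1 and control, 100 higher and 110 lower, which is 0.94% of the genes (0.448% higher, 0.493% lower). An unadjusted p under 0.05 was reached by 2703 genes. In all 210 called genes both siCAMSAP1 libraries lay on the same side of both control libraries, so separate groups add nothing to a call. Over all 22331 genes tested, both lay above both controls in 4611 and below in 4662. The changes were mostly small. Among the 100 that rose, 17 changed by more than 2-fold and the median log2 change was 0.66, and among the 110 that fell, 15 changed by more than 2-fold and the median was -0.6. Protein-coding genes made up 97 of the rises and 103 of the falls. The plot of level against change shows that calls spread over most of the range of expression, with a median of 28.6 CPM for genes that rose and 29.6 CPM for those that fell.

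**Figure D1:**
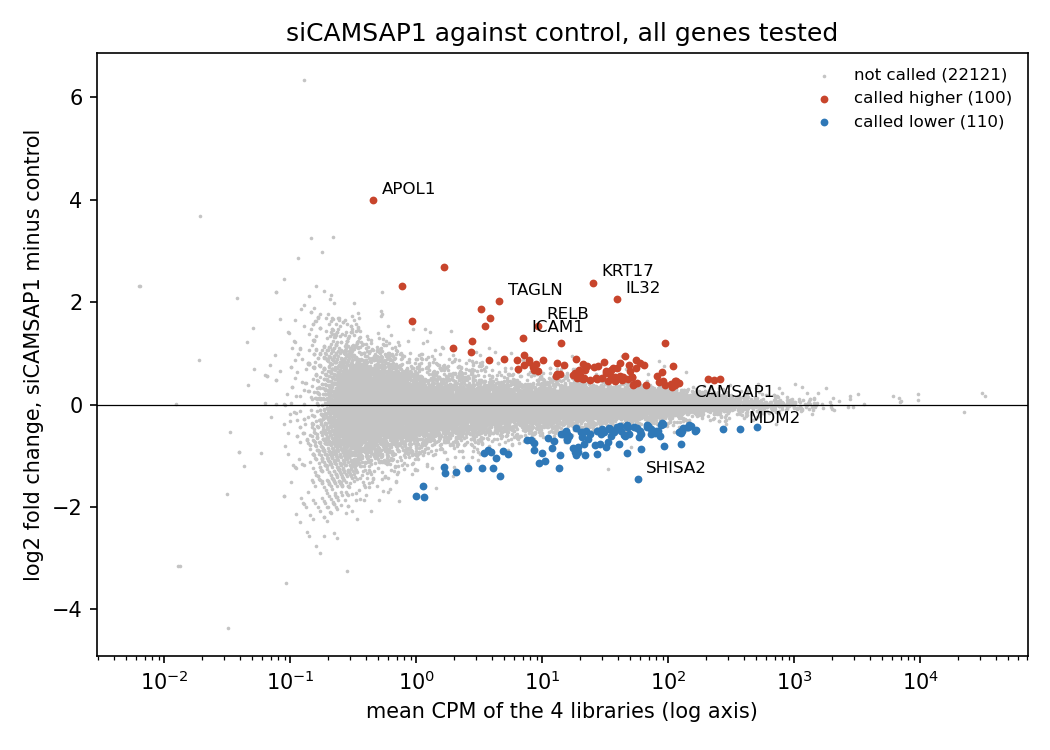
Mean CPM of the 4 libraries (log axis) against the log2 fold change of siCAMSAP1 minus control, 1 point per gene tested; coloured points are the 100 genes called higher and the 110 called lower. KRT17 and IL32 stand above and SHISA2 below the other genes of their level, while CAMSAP1 lies at 0.02.

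Of 20 listed NF-kB subunits and inhibitors 18 were tested, and 4 rose while 0 fell, against 0.94% of all genes called. RELB, NFKB2, NFKBIA and NFKBIE rose, the subunits that form the dimer of the alternative NF-kB pathway and the genes of IkB alpha and IkB epsilon. The median of the 18 was 0.33, and in 15 of them both siCAMSAP1 libraries lay above both control libraries. Over all 22331 genes tested, that held for 4611. RELB (ENSG00000104856, hg19 chromosome 19, 45504688 to 45541452) had 5.46 and 3.94 CPM in control and 13.4 and 13.9 in siCAMSAP1. That is a 2.91-fold rise, with a log2 fold change of 1.54 ± 0.16 (adjusted p = 0.00119). NFKB2 (ENSG00000077150, chromosome 10, 104153867 to 104162281), whose product p100 is processed to p52, went from 23.6 and 20.6 CPM to 40 and 38.4 (0.83 ± 0.12, adjusted p = 0.00799). NFKBIA (ENSG00000100906, chromosome 14, 35870717 to 35873955), the inhibitor that NF-kB induces in feedback, went from 41.3 and 37.9 CPM to 72.1 in both siCAMSAP1 libraries (0.86 ± 0.12, adjusted p = 0.00636). All 3 kept the call when any library was left out. NFKBIE went from 10.5 and 10.1 to 15.4 and 15.9 CPM (0.60 ± 0.11, adjusted p = 0.0234), and that call was lost when any of the 4 compared libraries was left out (adjusted p 0.0538 to 0.144).

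The subunits that are usually most abundant did not pass the test. RELA, the main activating subunit, had 79.0 and 73.0 CPM in control and 86.7 and 77.5 in siCAMSAP1 (0.11 ± 0.08, adjusted p = 0.671), with overlapping groups. NFKB1 had 44.1 and 40.1 against 53 and 50.9 CPM (0.30 ± 0.09, adjusted p = 0.193). TNFAIP3, the deubiquitinase A20 that damps the pathway, had 6.85 and 6.27 against 9.23 and 8 CPM (0.39 ± 0.20, adjusted p = 0.466). Reads were counted without strand, and TNFAIP3 overlaps WAKMAR2, so its value is uncertain. In siRAB3IP the same genes had 15.7 and 12.5 CPM for RELB, 45.8 and 35.4 for NFKB2, 91.1 and 66.9 for NFKBIA and 18.7 and 11.5 for TNFAIP3. Of these 4, the test of siCAMSAP1 against siRAB3IP was past the threshold for TNFAIP3 alone (adjusted p = 0.0196), where siRAB3IP was the higher.

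**Figure D2:**
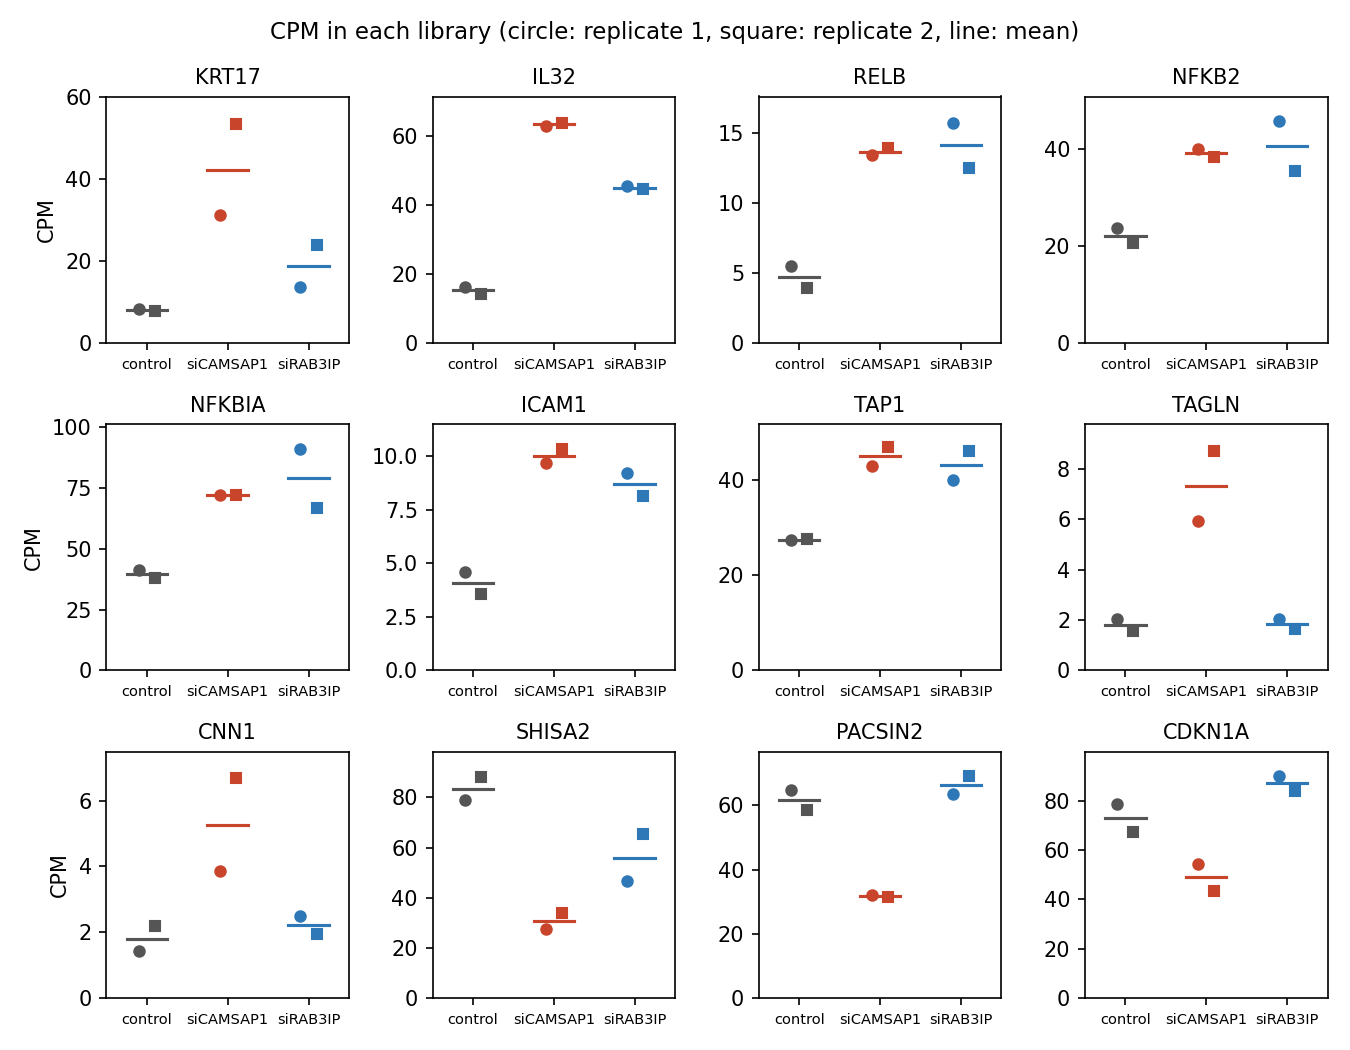
CPM of 12 genes in each library, by group, on axes that start at 0; circles are replicate 1, squares replicate 2 and lines group means. IL32 sits at 62.9 and 63.6 CPM in siCAMSAP1 against 16.2 and 14.3 in control, TAGLN is raised in siCAMSAP1 and not in siRAB3IP, and PACSIN2 is near 32 CPM in siCAMSAP1 alone.

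Of 26 listed target genes of NF-kB 25 were tested, 8 rose, 0 fell and 17 did not pass, with 5 calls without siCAMSAP1 replicate 2. IL32, ICAM1, BIRC3, SDC4, IER3, IRF1, CD83 and CD44 were the 8, and the median over the 25 was 0.41. They make 32.0% of the 25, against 0.94% of all genes called. IL32 (ENSG00000008517, hg19 chromosome 16, 3115298 to 3131908), a cytokine gene, had 16.2 and 14.3 CPM in control, 62.9 and 63.6 in siCAMSAP1 and 45.4 and 44.6 in siRAB3IP. Its rise was 4.16-fold (2.06 ± 0.09, adjusted p = 3.1e-07), and siCAMSAP1 was also above siRAB3IP (adjusted p = 0.0041). ICAM1 (ENSG00000090339, chromosome 19, 10381511 to 10397291), the adhesion receptor bound by leukocyte integrins, went from 4.57 and 3.58 CPM to 9.67 and 10.3 (1.29 ± 0.15, adjusted p = 0.00229). SDC4, a heparan sulfate proteoglycan of the cell surface, went from 49.8 and 45.0 to 78.4 and 84.3 CPM (0.78 ± 0.09, adjusted p = 0.00248). IER3, an immediate early gene linked to survival, went from 20.1 and 18.2 to 30 and 34.2 CPM (0.74 ± 0.10, adjusted p = 0.00529). IRF1, a transcription factor of interferon and antigen presentation genes, went from 15 and 15.2 to 24.2 and 23.9 CPM (0.67 ± 0.10, adjusted p = 0.00928).

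In those 5 genes the siCAMSAP1 libraries lay above both controls, and each call held when any library was left out. Separate groups were found in every called gene and add nothing to these calls. IL32 overlaps RNU1-125P, ICAM1 overlaps ICAM4-AS1 and LIMASI, and IER3 overlaps IER3-AS1, so their values are uncertain. BIRC3, an inhibitor of apoptosis, had 8.43 and 10.6 CPM in control and 13.7 and 19.7 in siCAMSAP1 (0.81 ± 0.16, adjusted p = 0.0372). The call of BIRC3 ended without control replicate 1 or siCAMSAP1 replicate 2 (adjusted p 0.123 to 0.239) and by limma-voom, with the compared groups alone or with the stricter filter (adjusted p 0.0535 to 0.0847). CD83 and CD44, surface proteins of leukocytes and many other cells, had log2 fold changes of 0.52 ± 0.09 and 0.45 ± 0.09. Both calls were lost when any of the 4 compared libraries was left out (adjusted p 0.0725 to 0.139 and 0.0501 to 0.177). CD44 overlaps CD44-AS1. In siRAB3IP ICAM1, SDC4, IER3 and IRF1 had log2 fold changes against control of 1.09, 1.0, 1.02 and 0.59. BIRC3, CD83 and CD44 had 0.79, 0.64 and 1.14 there. All of these genes were called there (adjusted p 2.01e-05 to 0.00906). Between the knockdowns CD44 was lower in siCAMSAP1 (adjusted p = 0.000553), and the rest of these genes were not past the threshold (adjusted p 0.1 to 0.963).

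The letters of an NF-kB site were looked for in the promoters of called genes. RefSeq (GRCh38.p14) gave 250 bases before to 50 bases after the start for 159 of the 210 called genes. The NF-kB consensus of 10 bases was searched on both strands, and 19 of 74 promoters of genes called higher held it (25.7%), against 5 of 85 for genes called lower (5.88%), 6.51% of 13182 tested genes and 5.91% of all 35116 promoters in the table. The share is a description without a test, since the genes were chosen by their change. Among the 9 called NF-kB subunits, inhibitors and targets with a promoter in the table, IRF1, BIRC3, NFKBIA, IL32 and SDC4 held it, and among the 7 called antigen presentation genes TAP1, TAPBP and ERAP1 did. CATTCC, the core bound by TEAD factors, was in 3 of the 74 (4.05%; 11.3% of tested genes), TGANTCA, the AP-1 element, in 4 (5.41%; 5.08%), and the CArG box bound by SRF in 1 (1.35%; 1.05%). Called NF-kB and antigen presentation genes that hold the consensus and kept their call when any 1 library was left out are shown because they carry the rise described above, 5' to 3' on the strand of the gene with the consensus in capitals. The sequences are of RefSeq build GRCh38.p14 and not of hg19, the build of the counts. They lie at chr14:35404700-35404999 (NFKBIA, minus), chr16:3065153-3065452 (IL32, plus), chr20:45348375-45348674 (SDC4, minus), chr5:132490724-132491023 (IRF1, minus), chr6:32853655-32853954 (TAP1, minus) and chr6:33314029-33314328 (TAPBP, minus).
NFKBIA promoter: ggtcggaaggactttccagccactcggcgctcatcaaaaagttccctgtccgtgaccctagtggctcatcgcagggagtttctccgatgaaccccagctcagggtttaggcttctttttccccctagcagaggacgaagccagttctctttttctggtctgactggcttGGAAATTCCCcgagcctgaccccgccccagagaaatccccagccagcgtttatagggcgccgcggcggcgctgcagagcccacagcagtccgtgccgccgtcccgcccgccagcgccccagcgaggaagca
IL32 promoter: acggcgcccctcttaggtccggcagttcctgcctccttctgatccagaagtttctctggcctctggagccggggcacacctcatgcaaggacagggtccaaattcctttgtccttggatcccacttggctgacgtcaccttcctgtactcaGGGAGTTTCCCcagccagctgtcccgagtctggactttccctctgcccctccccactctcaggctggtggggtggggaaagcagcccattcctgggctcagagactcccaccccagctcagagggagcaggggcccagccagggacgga
SDC4 promoter: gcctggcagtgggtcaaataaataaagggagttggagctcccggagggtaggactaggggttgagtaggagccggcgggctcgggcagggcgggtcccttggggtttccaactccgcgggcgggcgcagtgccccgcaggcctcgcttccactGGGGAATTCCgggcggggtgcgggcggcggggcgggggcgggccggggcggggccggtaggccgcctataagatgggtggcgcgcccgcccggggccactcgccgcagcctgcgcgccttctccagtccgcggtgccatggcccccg
IRF1 promoter: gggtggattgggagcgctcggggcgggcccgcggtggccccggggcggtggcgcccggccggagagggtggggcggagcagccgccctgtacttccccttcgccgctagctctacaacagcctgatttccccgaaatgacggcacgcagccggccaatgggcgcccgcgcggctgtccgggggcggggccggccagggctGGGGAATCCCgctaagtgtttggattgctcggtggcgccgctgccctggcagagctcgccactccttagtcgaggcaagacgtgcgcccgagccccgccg
TAP1 promoter: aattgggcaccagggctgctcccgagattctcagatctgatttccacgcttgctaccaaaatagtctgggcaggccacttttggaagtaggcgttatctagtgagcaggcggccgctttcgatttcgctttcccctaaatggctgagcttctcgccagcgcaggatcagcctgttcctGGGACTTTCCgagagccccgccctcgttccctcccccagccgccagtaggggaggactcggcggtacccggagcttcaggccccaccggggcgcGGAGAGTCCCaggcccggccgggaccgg
TAPBP promoter: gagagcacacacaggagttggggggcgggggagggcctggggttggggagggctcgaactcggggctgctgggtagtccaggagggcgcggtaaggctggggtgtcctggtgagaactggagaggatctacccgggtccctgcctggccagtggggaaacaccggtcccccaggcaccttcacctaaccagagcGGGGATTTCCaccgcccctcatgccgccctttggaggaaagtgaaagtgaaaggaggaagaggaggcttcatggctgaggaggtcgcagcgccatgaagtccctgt
The match in NFKBIA begins 81 bases before the start, that in SDC4 97 bases, that in IRF1 50 bases and that in TAPBP 56 bases before it. IL32 holds matches that overlap each other, the first 99 bases before the start, and TAP1 holds a match 72 bases before the start and another after it. These are letters in a window and say nothing of whether a factor was bound.

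Of 35 genes of the TNF and TNF receptor superfamily 25 were tested, and 2 rose (8.0%, against 0.94% of all genes called), both of them receptors. TNFRSF9, the co-stimulatory receptor 4-1BB, had 2.01 and 1.65 CPM in control, 5.64 and 6.04 in siCAMSAP1 and 12.8 and 12.2 in siRAB3IP. Its rise was 3.21-fold (1.68 ± 0.16, adjusted p = 0.000928), held when any 1 library was left out, and was smaller than that of siRAB3IP (adjusted p = 0.000612 for siCAMSAP1 against siRAB3IP). TNFRSF12A, the receptor of TWEAK, had unequal controls of 72.3 and 41.5 CPM against 142 and 119 in siCAMSAP1 (1.2 ± 0.21, adjusted p = 0.0194). Its call ended without siCAMSAP1 replicate 1 (adjusted p = 0.0525) and by DESeq2 (adjusted p = 0.0717), and it overlaps CLDN6. Of 31 chemokines and cytokines 20 were tested and edgeR called 0, with 7 at an unadjusted p under 0.05 and 2 called by DESeq2. CXCL8, the most responsive chemokine to NF-kB in many lines, had a mean of 2.79 CPM in control and 5.62 in siCAMSAP1 (log2 fold change 1.02, adjusted p = 0.289). IL31RA, a receptor subunit for interleukin 31, went from 4.39 and 5.32 to 8.84 and 10.2 CPM (0.97 ± 0.15, adjusted p = 0.00988), a call that ended without siCAMSAP1 replicate 2 (adjusted p = 0.0614).

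Genes of antigen presentation by MHC class I, which carries cytosolic peptides to the cell surface, held 7 calls. Of 23 listed genes 22 were tested, 7 rose and 0 fell (31.8% called, against 0.94% of all genes), and the median was 0.43. In 20 of 22 both siCAMSAP1 libraries lay above both controls, against 4611 of all 22331 genes tested. TAP1 (ENSG00000168394, hg19 chromosome 6, 32812986 to 32821755), a subunit of the peptide transporter, had 27.3 and 27.5 CPM in control and 43.0 and 46.9 in siCAMSAP1 (0.71 ± 0.09, adjusted p = 0.00488). TAPBP, the tapasin that tethers class I molecules to that transporter, went from 43.3 and 41.2 to 71.7 and 66.2 CPM (0.71 ± 0.11, adjusted p = 0.00965). Both calls held when any 1 library was left out. ERAP2, an aminopeptidase that trims the peptides, went from 76.3 and 84.1 to 121 and 152 CPM (0.76 ± 0.14, adjusted p = 0.0241), and its paralog ERAP1 had a log2 fold change of 0.53 ± 0.10 (adjusted p = 0.0276). MICA, a stress-induced ligand of the receptor NKG2D, went from 17.9 and 16.0 to 27.2 and 26.7 CPM (0.67 ± 0.10, adjusted p = 0.00834). In siRAB3IP TAP1, TAPBP, ERAP2, ERAP1 and MICA had log2 fold changes against control of 0.65, 0.87, 0.76, 0.53 and 0.87. All of them were called there (adjusted p 0.00026 to 0.00525), and none was past the threshold between the knockdowns (adjusted p 0.23 to 0.998).

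PSMB9, an immunoproteasome subunit whose annotated span covers TAP1, was low, with 15 and 20 fragments in control and 46 and 63 in siCAMSAP1 (1.64 ± 0.33, adjusted p = 0.0372). HLA-F had a log2 fold change of 0.56 ± 0.12 (adjusted p = 0.043). Of the classical class I genes, HLA-B was at 46.5 and 36.3 against 64.9 and 59.6 CPM (0.59 ± 0.13, adjusted p = 0.052) and HLA-C at 0.37 ± 0.08 (adjusted p = 0.0567), and the light chain B2M was at 0.25 ± 0.08 (adjusted p = 0.193). HLA-B and HLA-C were called by DESeq2 (adjusted p = 0.00247 and 0.00315) and limma-voom (0.047 and 0.0447). In siRAB3IP HLA-B, HLA-C and HLA-F had 0.07, 0.24 and 0.16 against control, none called by edgeR (adjusted p 0.0829 to 0.79). PSMB9 had 1.16 and B2M 0.44 there, both called (adjusted p = 0.0471 and 0.00394). HLA genes are alike in sequence and reads may be shared among them. TAP1 and PSMB9 overlap PSMB8-AS1, ERAP1 overlaps CAST and HLA-F overlaps HLA-F-AS1, so these values are uncertain. Calls ended without control replicate 1 or siCAMSAP1 replicate 2 for ERAP2 (adjusted p 0.062 to 0.123), without control replicate 1 or either siCAMSAP1 library for ERAP1 (0.0719 to 0.133), without control replicate 2 for MICA (0.0593), when any 1 of the 4 compared libraries was left out for PSMB9 (0.0618 to 0.23), and when any 1 of those or siRAB3IP replicate 2 was left out for HLA-F (0.0502 to 0.191). ERAP2 and ERAP1 also lost it with the stricter filter (0.0666 and 0.0595), PSMB9 with the compared groups alone or by limma-voom (0.0618 to 0.0682) and HLA-F with the compared groups alone, that filter or upper-quartile scaling (0.0582 to 0.0682). The list had 4 calls without control replicate 1, control replicate 2 or siCAMSAP1 replicate 1, 3 without siCAMSAP1 replicate 2, 3 with the stricter filter and 11 by DESeq2.

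Interferon-stimulated genes at large held a single call. Of 44 listed 41 were tested, and 1 rose, OAS3, an activator of RNase L, from 71.6 and 72.0 to 102 and 92.9 CPM (0.44 ± 0.08, adjusted p = 0.0239). The median was 0.14 and 2.44% of the 41 were called. The call of OAS3 ended when any 1 of the 4 compared libraries was left out (adjusted p 0.0534 to 0.217). Of 6 apolipoprotein L genes, which are induced by interferon and TNF in other cells, 3 were tested and 2 rose. These 2 were near the floor in control. The 6 genes summed to 31.0 and 29.2 CPM in control and 37.2 and 38.7 in siCAMSAP1, nearly all of it from other members. APOL1 had 4 and 0 fragments in control and 34 and 33 in siCAMSAP1 (adjusted p = 0.0223), and APOL6 had 10 and 10 against 34 and 66 (2.31 ± 0.49, adjusted p = 0.0461). No fold change is given for APOL1, since its control counts are too few. APOL1 was also called higher than control in siRAB3IP (adjusted p = 0.00311), as were APOL6 (3.2, adjusted p = 0.00112) and OAS3 (0.54, adjusted p = 0.00135). None of them was past the threshold between the knockdowns (adjusted p 0.163 to 0.901). The call of APOL1 ended without control replicate 2 or siCAMSAP1 replicate 1 (adjusted p 0.0513 to 0.0931), and that of APOL6 without either control library or siCAMSAP1 replicate 2 (0.0883 to 0.228), by limma-voom or with upper-quartile scaling (0.0515 to 0.154).

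**Figure D3:**
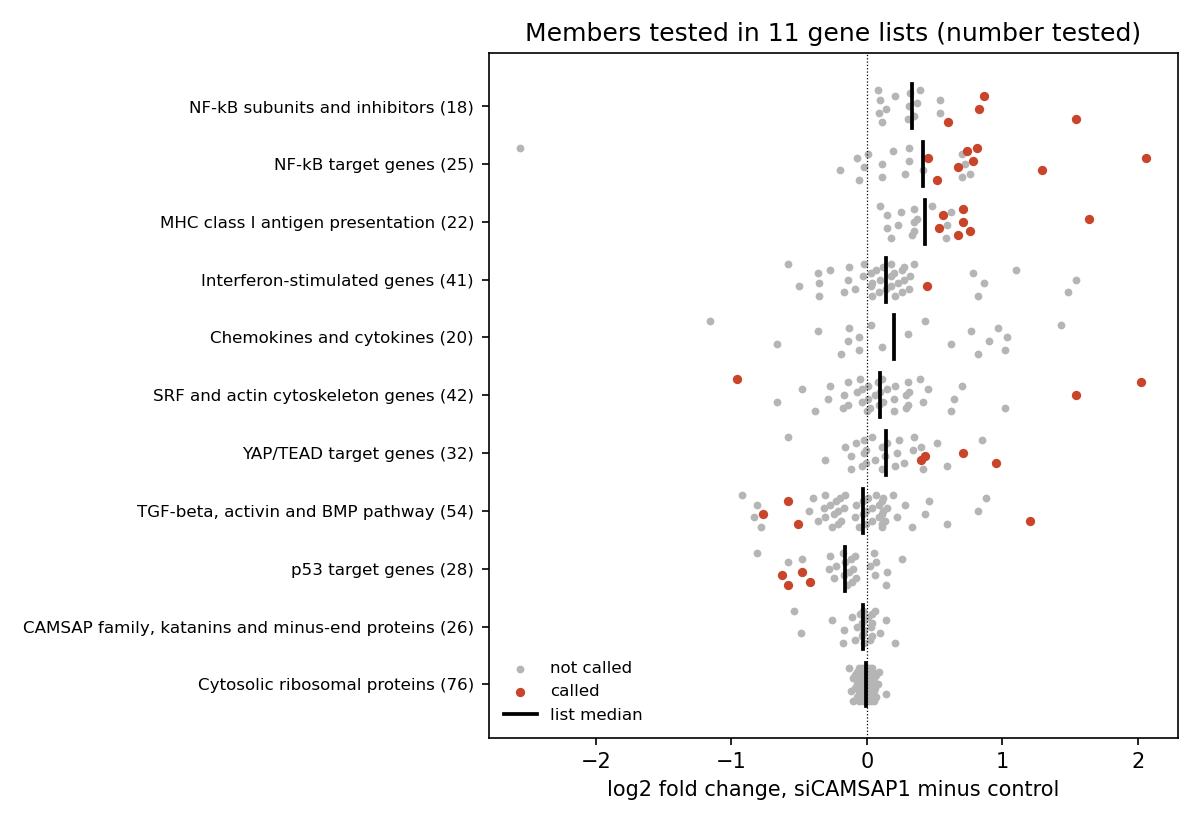
Log2 fold change, siCAMSAP1 minus control, of each tested member of 11 gene lists, with the number tested in brackets; red points were called, and the black bar is the list median. The medians of NF-kB subunits (0.33), NF-kB targets (0.41) and MHC class I genes (0.43) lie to the right of 0, that of p53 targets (-0.16) lies to the left, and the 76 ribosomal protein genes lie near 0.

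At a mean of 5 CPM or more, KRT17 had the largest rise. This type I keratin gene of basal and wounded epithelium (ENSG00000128422, hg19 chromosome 17, 39775689 to 39781094) had 8.29 and 7.91 CPM in control, 31.1 and 53.4 in siCAMSAP1, and 13.7 and 23.8 in siRAB3IP. The rise was 5.21-fold (2.38 ± 0.26, adjusted p = 0.00119), the siCAMSAP1 libraries differed from each other, and both lay above every other library. KRT17 overlaps JUP, and keratin pseudogenes may share its reads. It was the 1 call among 30 tested keratins, cadherins and intermediate filament genes.

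Genes of smooth muscle actin and its binding proteins were called in both directions. Of 45 genes of SRF and the actin cytoskeleton 42 were tested, 2 rose and 1 fell. That is 7.14% called, against 0.94% of all genes, and the median was 0.1. TAGLN (ENSG00000149591, chromosome 11, 117070037 to 117075498), which encodes transgelin, had 2.06 and 1.55 CPM in control and 5.93 and 8.71 in siCAMSAP1 (2.02 ± 0.23, adjusted p = 0.00171). CNN1, calponin, went from 1.42 and 2.18 to 3.87 and 6.68 CPM (1.54 ± 0.28, adjusted p = 0.0241). In siRAB3IP the libraries had 2.06 and 1.65 CPM of TAGLN and 2.49 and 1.94 of CNN1, and siCAMSAP1 was above siRAB3IP for both (adjusted p = 0.000428 and 0.0146). ACTA2, the actin of smooth muscle, fell from 6.71 and 7.55 to 3.27 and 4.04 CPM (-0.96 ± 0.16, adjusted p = 0.0174). It was also called lower than control in siRAB3IP (-0.63, adjusted p = 0.0241), and was not past the threshold between the knockdowns (adjusted p = 0.253). SRF itself had a mean of 54.7 CPM in control and 55.1 in siCAMSAP1, and ACTB had a log2 fold change of 0.01. TAGLN overlaps PCSK7 and ACTA2 overlaps FAS and ACTA2-AS1, so both are uncertain. The call of TAGLN held when any 1 library was left out, that of CNN1 ended without control replicate 1 or siCAMSAP1 replicate 2 (adjusted p 0.0733 to 0.156), and that of ACTA2 without control replicate 2 or siCAMSAP1 replicate 1 (0.0967 to 0.119).

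Among 32 targets and members of the YAP/TEAD pathway, which responds to cell contact and tension, 4 rose and 0 fell. That is 12.5% called, against 0.94% of all genes, and the median was 0.14. CCN1, a matricellular protein and immediate target of YAP, had 27.8 and 34.4 CPM in control and 47.6 and 72.9 in siCAMSAP1 (0.95 ± 0.18, adjusted p = 0.0298). WWC1, which encodes KIBRA, an upstream component of the Hippo pathway, went from 29.7 and 30.2 to 50 and 48.0 CPM (0.71 ± 0.08, adjusted p = 0.00171) and kept the call when any 1 library was left out. AJUBA (49.2 and 47.4 to 65.7 and 64.7 CPM, adjusted p = 0.0254) and AMOTL2 (93.8 and 93.5 to 123 and 124 CPM, adjusted p = 0.0294) rose by less, and both were higher in siCAMSAP1 than in siRAB3IP (adjusted p = 0.000521 and 0.00683). YAP1 and TEAD1 had log2 fold changes of -0.01 and -0.02. In siRAB3IP WWC1 had 0.75 against control (adjusted p = 0.000244), and CCN1 had 0.53 and was not called (adjusted p = 0.0832). The call of CCN1 ended without control replicate 1 or siCAMSAP1 replicate 2 (adjusted p 0.0845 to 0.146), by DESeq2 and with the stricter filter (0.0826 to 0.0904). Those of AJUBA and AMOTL2 ended when any 1 of the 4 compared libraries was left out (0.0514 to 0.148 and 0.0696 to 0.163), and AMOTL2 also lost it with the compared groups alone (0.0531). The list had 2 calls without either control library and 1 without siCAMSAP1 replicate 2. AMOTL2 overlaps the pseudogene RPL39P5.

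In the TGF-beta, activin and BMP list, 54 of 56 genes were tested, 1 rose and 3 fell (7.41% called, against 0.94% of all genes). FSTL3, a secreted glycoprotein that binds and inhibits activin (ENSG00000070404, hg19 chromosome 19, 676392 to 683385), had 9.10 and 8.11 CPM in control, 18 and 21.5 in siCAMSAP1 and 20.1 and 18.9 in siRAB3IP. Its log2 fold change was 1.2 ± 0.12 (adjusted p = 0.00106), and the call held when any 1 library was left out. ID1, ID2 and ID3, which BMP signals induce and which block basic helix-loop-helix transcription factors, fell together. ID1 went from 38.5 and 33.9 to 23.0 and 19.3 CPM (-0.77 ± 0.15, adjusted p = 0.0325), ID3 from 94.0 and 81.2 to 60.8 and 56.4 (-0.58 ± 0.10, adjusted p = 0.016) and ID2 from 48.7 and 50.8 to 36.5 and 33.3 (-0.51 ± 0.10, adjusted p = 0.0274). No siCAMSAP1 library reached the lower control in any of these 3, as in every called gene that fell. ID4 had -0.31 (adjusted p = 0.43), the inhibitory SMAD6 -0.40 (adjusted p = 0.101) and BMP4 -0.43 (adjusted p = 0.289). The calls of ID1 and ID3 ended without control replicate 1 or siCAMSAP1 replicate 2 (adjusted p 0.0863 to 0.163 and 0.0535 to 0.106), and that of ID2, which overlaps ID2-AS1, without control replicate 2 or either siCAMSAP1 library (0.0546 to 0.181). ID1 also lost it with the stricter filter (0.0545), and without siCAMSAP1 replicate 2 FSTL3 was the 1 call of the list.

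Targets of p53 had a median below 0. All 28 listed genes were tested, 4 fell and 0 rose (14.3% called, against 0.94% of all genes), and the median was -0.16. In 18 both siCAMSAP1 libraries lay below both controls, while in 3 both lay above. Over all 22331 genes tested, both lay below in 4662 and above in 4611. HEK293 cells carry adenoviral E1B, whose product binds p53, so p53 targets are read here in cells where the pathway is known to be altered. CDKN1A (ENSG00000124762, hg19 chromosome 6, 36644305 to 36655116), the cyclin-dependent kinase inhibitor p21, had 78.8 and 67.3 CPM in control, 54.4 and 43.3 in siCAMSAP1, and 90.2 and 84.1 in siRAB3IP. It fell against control (-0.58 ± 0.11, adjusted p = 0.0309) and was below siRAB3IP (adjusted p = 0.000864). MDM2 (ENSG00000135679, chromosome 12, 69201956 to 69239214), the ubiquitin ligase of p53, fell from 418 and 443 to 306 and 310 CPM (-0.48 ± 0.09, adjusted p = 0.0223). DDB2, a damage-recognition factor of nucleotide excision repair, fell from 68.8 and 73.2 to 46.9 and 44.5 CPM (-0.63 ± 0.10, adjusted p = 0.0105). SESN1, a stress-induced regulator of mTORC1, fell from 46.1 and 48.8 to 35.4 in both libraries (-0.42 ± 0.08, adjusted p = 0.0342). Against control, siRAB3IP had -0.26 for MDM2, -0.2 for DDB2 and -0.79 for SESN1, and SESN1 alone of them was called there (adjusted p = 0.000202). Compared with siRAB3IP, siCAMSAP1 was higher for SESN1 (adjusted p = 0.0185), lower for DDB2 (adjusted p = 0.0162) and not past the threshold for MDM2 (adjusted p = 0.132).

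BAX and BBC3, pro-apoptotic p53 targets, had log2 fold changes of -0.23 (adjusted p = 0.285) and 0.14 (adjusted p = 0.653). PURPL, a long non-coding RNA induced by p53 and outside the list, fell from 68.2 and 87.8 to 36.6 and 49.7 CPM (-0.86 ± 0.17, adjusted p = 0.035). It had -0.37 in siRAB3IP against control and was not called there (adjusted p = 0.187). The call of DDB2 ended without siCAMSAP1 replicate 2 (adjusted p = 0.0706), that of CDKN1A without control replicate 1 or siCAMSAP1 replicate 2 (0.102 to 0.204), that of MDM2 without control replicate 2 or either siCAMSAP1 library (0.0873 to 0.112), that of PURPL without control replicate 2 or siCAMSAP1 replicate 1 (0.157 to 0.162) and that of SESN1 when any 1 of the 6 libraries was left out (0.0501 to 0.206). CDKN1A and SESN1 also lost it with the compared groups alone (adjusted p = 0.0551 and 0.0531), and PURPL by DESeq2 and with the stricter filter (0.0818 to 0.126). The list had 2 calls without either control library or siCAMSAP1 replicate 1, 2 with the compared groups alone and 0 without siCAMSAP1 replicate 2. MDM2 overlaps the gene of carboxypeptidase M.

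At a mean of 5 CPM or more, SHISA2 had the largest fall. SHISA2 (ENSG00000180730, hg19 chromosome 13, 26618735 to 26625169), a protein of the endoplasmic reticulum that restrains the maturation of Wnt and FGF receptors, had 78.9 and 88.0 CPM in control, 27.3 and 33.8 in siCAMSAP1 and 46.6 and 65.3 in siRAB3IP. It fell 2.73-fold (-1.45 ± 0.14, adjusted p = 0.000928). PACSIN2 (ENSG00000100266, chromosome 22, 43231418 to 43411151), an F-BAR protein that bends membranes at caveolae and endocytic sites, had 64.9 and 58.5 CPM in control, 32.2 and 31.5 in siCAMSAP1, and 63.6 and 69.2 in siRAB3IP. Its siCAMSAP1 libraries lay below all 4 others, by 1.94-fold against control (-0.95 ± 0.09, adjusted p = 0.000928) and past the threshold against siRAB3IP (adjusted p = 5.59e-05). LCLAT1, an acyltransferase of cardiolipin remodelling named after its values were seen, was also lowest in both siCAMSAP1 libraries. It had 52.9 and 50 CPM in control, 30.2 and 29.5 in siCAMSAP1 and 68.0 and 61.6 in siRAB3IP (-0.78 ± 0.09, adjusted p = 0.00134). In siRAB3IP LCLAT1 was called higher than control (0.33 ± 0.08, adjusted p = 0.0231), while PACSIN2 was not called there (0.11 ± 0.09, adjusted p = 0.487). SHISA2, PACSIN2 and LCLAT1 each kept the call when any 1 library was left out, while PACSIN2 overlaps ARFGAP3 and is uncertain.

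LRATD2, METTL7A, SAMD11 and TRIB2 fell in both knockdowns and kept their calls when any 1 library was left out. LRATD2 went from 27.9 and 29.9 to 15.7 and 13.6 CPM (-0.98 ± 0.12, adjusted p = 0.00229), METTL7A from 31.0 and 41.3 to 18.8 and 18.5 (-0.96 ± 0.13, adjusted p = 0.00549), SAMD11 from 26.3 and 23.7 to 14.9 and 11.4 (-0.93 ± 0.13, adjusted p = 0.00586) and the pseudokinase gene TRIB2 from 23.8 and 23.9 to 11.3 and 13.7 (-0.93 ± 0.13, adjusted p = 0.00549). In siRAB3IP these 4 had log2 fold changes of -1.27, -1.13, -0.77 and -0.49 against the same controls. DHRS2, a mitochondrial and nuclear reductase, went from 19.2 in both controls to 10.2 and 6.10 CPM (-1.24 ± 0.25, adjusted p = 0.0366), and CCBE1, a secreted factor of lymphatic vessel growth, from 11.8 and 14 to 4.82 and 6.91 (-1.14 ± 0.22, adjusted p = 0.0285). Both were below siRAB3IP (adjusted p = 0.00804 and 0.000826), where DHRS2 had 25.1 and 13.9 CPM and CCBE1 had 13.9 and 22.2. PCYOX1L (-0.95 ± 0.15, adjusted p = 0.0106) and GPRIN3 (-0.88 ± 0.16, adjusted p = 0.0228) complete the largest falls besides those named elsewhere. Calls ended without either control library or siCAMSAP1 replicate 2 for DHRS2 (adjusted p 0.0535 to 0.156), without control replicate 2 or siCAMSAP1 replicate 1 for CCBE1 (0.115 to 0.141), without control replicate 2 for PCYOX1L (0.0683) and without that or either siCAMSAP1 library for GPRIN3 (0.0591 to 0.154). DHRS2 also lost it by DESeq2 and with the stricter filter (0.0732 to 0.143), and CCBE1 with that filter (0.0666). SAMD11 overlaps NOC2L.

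Among structural genes of microtubules, 41 were listed, 37 tested, 1 rose and 2 fell, with a median of 0.03. That is 8.11% called, against 0.94% of all genes. MAP1A, a microtubule-associated protein of neurons, fell from 13.1 and 15.3 to 7.96 and 5.36 CPM (-1.10 ± 0.17, adjusted p = 0.0106), and MAP2, which marks dendrites, from 4.31 and 7.04 to 2.40 and 2.44 (-1.23 ± 0.24, adjusted p = 0.0302). CLIP1, a protein of growing microtubule plus ends, rose from 96.4 and 98.6 to 123 and 131 CPM (0.39 ± 0.08, adjusted p = 0.043). Against control, siRAB3IP had -0.71 for MAP1A, -1.34 for MAP2 and 0.45 for CLIP1, all called there (adjusted p 0.00398 to 0.0172). None of them was past the threshold between the knockdowns (adjusted p 0.196 to 0.855). Of 44 cilium and centrosome genes edgeR and DESeq2 called 0, and 5 had an unadjusted p under 0.05. The calls ended without control replicate 2 or siCAMSAP1 replicate 2 for MAP1A (adjusted p 0.0512 to 0.0534), without control replicate 2 or either siCAMSAP1 library for MAP2 (0.114 to 0.255) and when any 1 of the 6 libraries was left out for CLIP1 (0.0554 to 0.252), which overlaps CLIP1-AS1 and also lost it with upper-quartile scaling, the stricter filter or the compared groups alone (0.0567 to 0.0709).

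Neuronal and axon guidance genes held few calls. HEK293 cells express several neuronal genes, and NEFL, the light neurofilament, fell from 152 and 167 CPM to 89.3 and 96.6 (-0.78 ± 0.12, adjusted p = 0.0134), the 1 call among 33 tested neuronal genes. Of 52 tested axon guidance genes 1 rose and 3 fell (7.69% called, against 0.94% of all genes), and the median was -0.15. The ligand SLIT2 fell from 92.6 and 116 to 66.3 and 69.2 CPM (-0.62 ± 0.12, adjusted p = 0.0281) and its receptor ROBO1 from 157 and 176 to 124 and 121 (-0.44 ± 0.08, adjusted p = 0.0281). UNC5C, a receptor for netrin, fell from 16.8 and 20.1 to 8.30 and 10.4 CPM (-0.98 ± 0.18, adjusted p = 0.0274), and the semaphorin receptor PLXNB1 rose from 11.6 and 10.5 to 16.8 and 16.4 (0.59 ± 0.11, adjusted p = 0.0281). The call of NEFL ended without siCAMSAP1 replicate 1 (adjusted p = 0.0539), that of UNC5C without control replicate 2 or siCAMSAP1 replicate 1 (0.125 to 0.134), and those of SLIT2, ROBO1 and PLXNB1 without control replicate 2 or either siCAMSAP1 library (0.089 to 0.151, 0.116 to 0.163 and 0.116 to 0.206). UNC5C and SLIT2 also lost it with the stricter filter (0.0624 and 0.0599) and PLXNB1 with the compared groups alone (0.0505). The list had 0 calls without control replicate 2 or siCAMSAP1 replicate 1 and 1 without siCAMSAP1 replicate 2. UNC5C overlaps UNC5C-AS1.

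Of 54 collagens, matrix proteins and integrins 52 were tested, 3 rose and 2 fell, with a median of 0.13. That is 9.62% called, against 0.94% of all genes. COL5A2, a fibrillar collagen chain, fell from 31.9 and 34.7 to 17.1 and 21.1 CPM (-0.80 ± 0.11, adjusted p = 0.00549) and held when any 1 library was left out. LAMA4, a laminin chain of vessel basement membranes, fell from 20.2 and 28.6 to 10.8 and 14 (-0.98 ± 0.18, adjusted p = 0.0226). LAMB3, a chain of the epithelial laminin of skin, rose from 18.4 and 15.4 to 30.4 and 26.2 CPM (0.75 ± 0.12, adjusted p = 0.0165), THBS2, a thrombospondin, from 4.65 and 5.08 to 7.91 and 7.85 (0.69 ± 0.13, adjusted p = 0.0283), and COL18A1, the source of endostatin, from 40.5 and 39.1 to 56.2 and 56.1 (0.50 ± 0.10, adjusted p = 0.0366). The groups did not overlap in any of the 5, as in every called gene. LAMA4 and LAMB3 lost the call without control replicate 2 or siCAMSAP1 replicate 1 (adjusted p 0.112 to 0.127 and 0.09 to 0.106), and THBS2 and COL18A1 when any 1 of the 4 compared libraries was left out (0.0935 to 0.131 and 0.0652 to 0.17). LAMA4 and COL18A1 also lost it with the stricter filter (0.0553 and 0.0652), and THBS2 with the compared groups alone (0.068). The list had 1 call without control replicate 2, 2 without siCAMSAP1 replicate 1, and 3 without siCAMSAP1 replicate 2 or with the stricter filter. COL18A1 overlaps SLC19A1.

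Other lists held 1 or 2 calls each. HSPB8, a small heat shock chaperone of selective autophagy, rose from 37.7 and 33.8 to 62.9 and 59.9 CPM (0.78 ± 0.09, adjusted p = 0.00171), the 1 call among 17 tested heat shock genes. In siRAB3IP HSPB8 had 0.78 against control as well (adjusted p = 0.000287). OPTN, an autophagy receptor, rose from 39.2 and 38.4 to 59.3 and 62.9 CPM (0.66 ± 0.09, adjusted p = 0.00416), and the calls of OPTN, which overlaps CCDC3, and HSPB8 held when any 1 library was left out. Among 31 tested ATF4 targets PPP1R15A, a phosphatase subunit that reverses eIF2 alpha phosphorylation, rose from 76.4 and 62.8 to 112 and 105 CPM (0.64 ± 0.11, adjusted p = 0.0168), and ALDH1L2, a mitochondrial folate enzyme, fell from 13.9 and 16.7 to 8.27 and 10.3 (-0.72 ± 0.14, adjusted p = 0.0281). MBNL1, a regulator of alternative splicing, fell from 145 and 155 to 108 and 103 CPM (-0.51 ± 0.08, adjusted p = 0.00965), the 1 call among 58 tested splicing factors.

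FADS1, a fatty acid desaturase, fell from 302 and 334 to 223 and 232 CPM (-0.48 ± 0.09, adjusted p = 0.0223), DERL3 of the endoplasmic reticulum stress list fell (-0.69 ± 0.14, adjusted p = 0.0444), and DUSP8, a phosphatase of MAP kinases, rose from 5.08 and 5.44 to 8.92 and 9.19 CPM (0.78 ± 0.13, adjusted p = 0.016). LCP1, an actin-bundling protein of leukocytes, rose from 1.07 and 1.40 to 2.37 and 2.95 CPM (1.10 ± 0.23, adjusted p = 0.043), the 1 call among 10 tested blood and immune markers. The part of other cells in it was not tested. Calls ended without control replicate 2 or siCAMSAP1 replicate 1 for PPP1R15A and ALDH1L2 (adjusted p 0.0689 to 0.092 and 0.184 to 0.189), without those or siCAMSAP1 replicate 2 for FADS1 (0.0919 to 0.131), without siCAMSAP1 replicate 2 for MBNL1 (0.089), when any 1 of the 4 compared libraries was left out for DUSP8 (0.0546 to 0.089) and when any 1 of the 6 libraries was left out for DERL3 and LCP1 (0.0512 to 0.254 and 0.0521 to 0.234). DERL3 also lost it by limma-voom, with the compared groups alone or the stricter filter (0.0545 to 0.0786), LCP1 by limma-voom, with the compared groups alone or upper-quartile scaling (0.052 to 0.0933), and ALDH1L2 with the compared groups alone (0.0531). FADS1 overlaps FADS2, DERL3 overlaps SMARCB1 and MBNL1 overlaps MBNL1-AS1. RAB3IP, CCBE1, LAMA4, AJUBA, SESN1, NEFL and HLA-B each overlap a gene without a symbol and are uncertain in the same way.

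In several lists edgeR called no gene. Among 40 mitotic genes 4 had an unadjusted p under 0.05 and DESeq2 called 1, among 76 cytosolic ribosomal proteins the counts were 0 and 0, among 32 tested hypoxia and glycolysis genes 7 and 2, among 25 NRF2 targets 6 and 1, among 26 tested Wnt targets 6 and 1, among 25 tested Notch genes 5 and 1, among 16 tested histone genes 1 and 0, and among 17 tested genes of RNA interference 5 and 0. limma-voom called 0 in each of these 8. Among 28 tested AP-1 and immediate early genes CCN1 was the 1 call, with a median of 0.33. Both siCAMSAP1 libraries lay above both controls in 17 of the 28, and in 4611 of all 22331 genes tested. The medians of these 8 lists lay between -0.06 and 0.05.

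Set beside siRAB3IP, some of the siCAMSAP1 changes had like values and others did not. Against the same controls 2597 genes were called in siRAB3IP (11.6% of 22331), and 1977 genes differed between siCAMSAP1 and siRAB3IP (8.85%). Both knockdowns are compared with the same control libraries, so their fold changes are not independent, and they are given side by side only. Among the 15 largest rises RELB had 1.54 in siCAMSAP1 and 1.59 in siRAB3IP, FSTL3 1.2 and 1.18, NFKBIA 0.86 and 1, NFKB2 0.83 and 0.88, and SHISAL1 0.86 and 1.24, none of them past the threshold between the knockdowns (adjusted p 0.0688 to 0.952). Calls between the knockdowns fell to 816, 1083, 1007 and 620 without siCAMSAP1 replicate 1, siCAMSAP1 replicate 2, siRAB3IP replicate 1 and siRAB3IP replicate 2. LAMP3, a lysosomal membrane protein of dendritic cells, had 0.86 and 0.35, and RENBP, an epimerase that binds renin, 0.84 and 0.12, and both were higher in siCAMSAP1 (adjusted p = 0.0325 and 0.022). AP1M2, a subunit of the epithelial clathrin adaptor AP-1B, had 0.88 and 0.49 (adjusted p = 0.0691 for the difference). FAM111A-DT, which overlaps FAM111A, had 0.86 and 0.88. MBNL1 was at -0.51 in siCAMSAP1 and 0.14 in siRAB3IP, a difference past the threshold (adjusted p = 0.000428). Of these genes LAMP3 lost its call against control without siCAMSAP1 replicate 2 (adjusted p = 0.0919), and RENBP and FAM111A-DT without control replicate 1 or either siCAMSAP1 library (0.0635 to 0.205 and 0.0546 to 0.119). RENBP also lost it with the compared groups alone, the stricter filter or upper-quartile scaling (0.0554 to 0.0837).

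**Figure D4:**
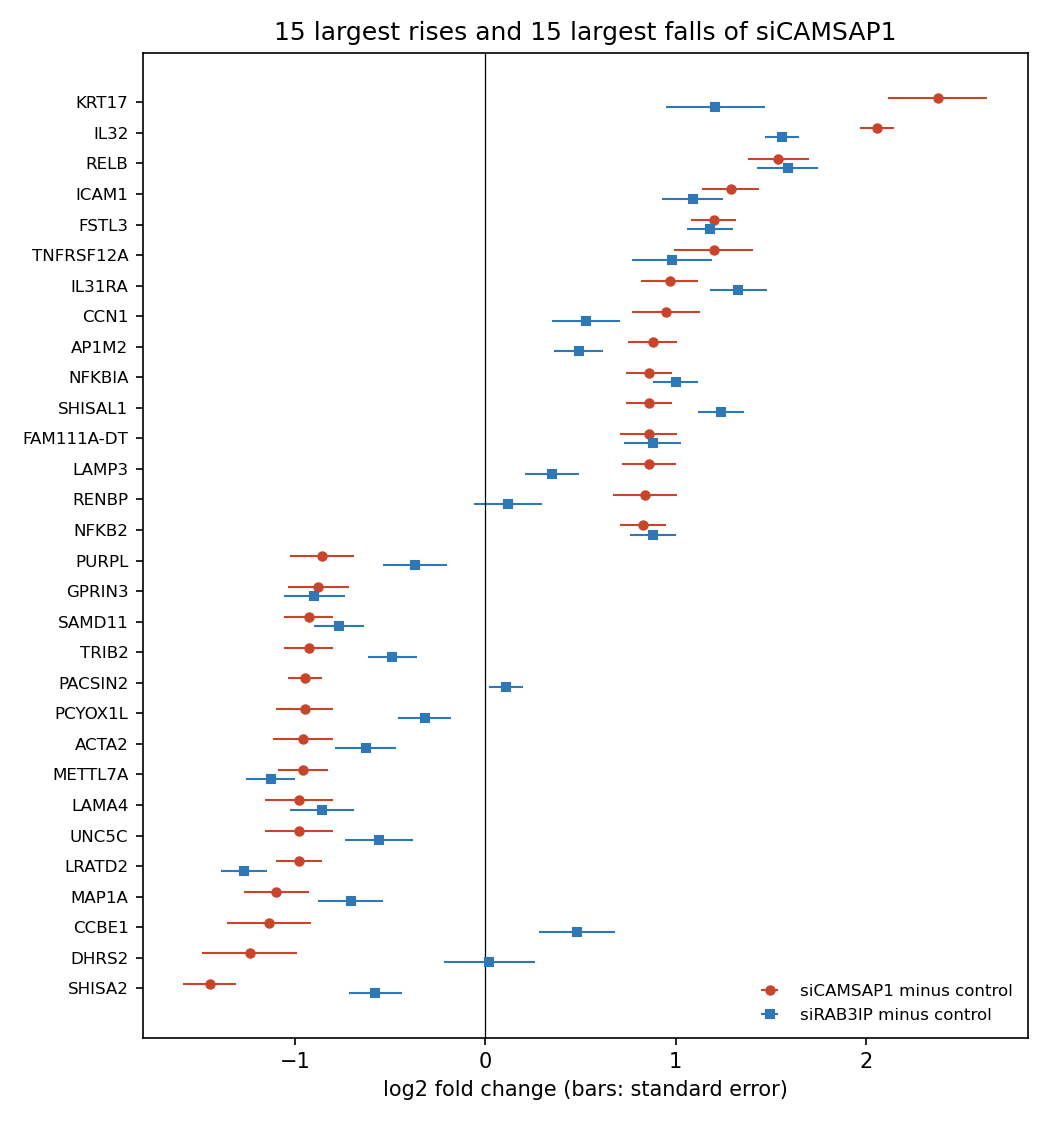
Log2 fold change against control, with its standard error, of the 15 largest rises and 15 largest falls of siCAMSAP1 (circles) and of the same genes in siRAB3IP (squares); both use the same 2 control libraries. RELB, FSTL3 and NFKB2 coincide, while PACSIN2, DHRS2 and CCBE1 are below 0 in siCAMSAP1 and at or above 0 in siRAB3IP.

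Calls were sensitive to single libraries. Leaving out each of the 6 libraries in turn, 36 of the 210 genes kept the call and the direction in all 6 fits, 26 of them higher and 10 lower. The higher ones were IL32, KRT17, TAGLN, PLA2G4C, TNFRSF9, RELB, ICAM1, FSTL3, AP1M2, SHISAL1, NFKBIA, NFKB2, OSTM1, ANXA3, SLC16A9, SDC4, HSPB8, KIFC3, IER3, TAPBP, TAP1, WWC1, PRRG4, IRF1, OPTN and SLC12A7. The lower ones were SHISA2, LRATD2, METTL7A, PACSIN2, SAMD11, TRIB2, SLC7A2, COL5A2, LCLAT1 and ANKRD13B. No call changed direction in these 6 fits. A change was hardly possible, since in all 210 both siCAMSAP1 libraries lay on the same side of both controls. Against a minimum fold of 1.2 edgeR called 24 genes higher and 11 lower, which left 35 of the 210. The authors' deposited table of siCAMSAP1 lists 474 genes, 255 higher and 219 lower, and holds 191 of the 210 (91.0% of these and 40.3% of the table), all 191 with the same sign. That table comes from the same counts in the same grouping, so it is no independent check. DESeq2 as run here called 182 higher and 180 lower.

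**Figure D5:**
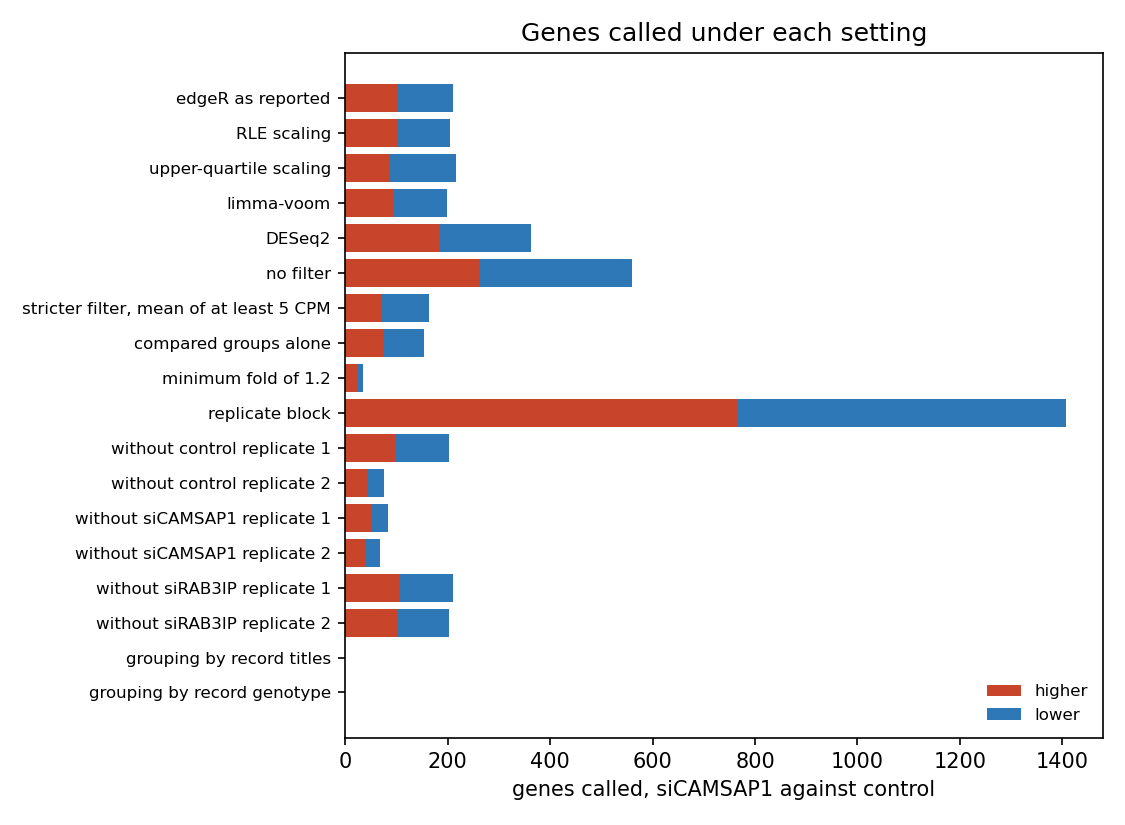
Number of genes called in siCAMSAP1 against control under each setting, higher (red) and lower (blue) stacked. Bars of like length need not hold the same genes, also where a single library was left out. The count of 210 falls to 67, 75 and 84 without siCAMSAP1 replicate 2, control replicate 2 or siCAMSAP1 replicate 1, rises to 1408 with a replicate block, and is 0 under both groupings by the sample records.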

How the data were processed

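Gene counts are whole fragments per gene that the authors made with featureCounts 1.6.0 from primary alignments whose ends both mapped, chimeras left out, with no strand setting, per the file headers, with an hg19 annotation. The submitters' processing notes also name STAR and DESeq2 without versions. The signal columns in the deposited tables are counts the authors divided by a size factor and served only to match columns to libraries (tolerance 1e-9 in log2 ratio). The deposited log2 fold change, the deposited Wald score and the deposited adjusted p-value come from the authors' table, which holds only genes past their threshold.

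The main test was the quasi-likelihood test of edgeR 4.0.16 (R 4.3.3) after TMM scaling and edgeR's default filter, in a single fit to all 3 groups that left 3 residual degrees of freedom, and 22331 of 63677 genes passed the filter. Symbols of 52560 genes were matched, 34 of them through the authors' tables. The 37 mitochondrial genes held 0 fragments. DESeq2 1.42.0, limma 3.58.1 and other settings served as alternatives, and the edgeR test was checked on simulated data. Replicates of a group differed beyond counting noise. Of 1339 entries in 41 gene lists, 1327 matched a gene. The text names both host genes, the 15 called genes that rose most and the 15 that fell most at a mean of 5 CPM or more with separate groups, up to 4 called members per list, and members given for their role. IRF1, CD83, CD44, MICA, ERAP1, HLA-F, COL18A1, LCLAT1 and those of the closing section were added after their values were seen. The genes and lists were chosen with earlier results of these data known. Sequences are RefSeq's (GRCh38.p14). Some genes are not reported here.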

Additional observations from a re-analysis of the deposited data

How the results depend on the processing

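Of 210 calls in siCAMSAP1 against control (100 higher, 110 lower), DESeq2 gave 362 (182 and 180), no filter 560 (261 and 299), a minimum fold of 1.2 35 (24 and 11) and both groupings by the sample records 0 (0 and 0). Leaving out 1 library at a time gave 67 to 210 calls (29 to 104 lower, 38 to 106 higher), with 75 without control replicate 2 (42 and 33), 84 without siCAMSAP1 replicate 1 (53 and 31) and 67 without siCAMSAP1 replicate 2 (38 and 29). Of the 1977 calls between siCAMSAP1 and siRAB3IP a minimum fold of 1.2 left 513, the record groupings 0 and 0, and leaving out 1 library at a time 620 to 2296.

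Replicate numbers of the groups gave a replicate block with 1408 calls (766 higher, 642 lower) against control and 4630 against siRAB3IP. Deviations of same-numbered libraries correlated across 11784 genes (r = 0.532 for control and siCAMSAP1, 0.45 and 0.445 with siRAB3IP). With 2 numbers per group the libraries were not treated as pairs, a choice made with the counts of calls under the block known. Of the named genes not called, the block called CAMSAP2 (adjusted p = 0.0462), NFKB1 (0.00867), HLA-B (2.94e-05), HLA-C (0.000839) and B2M (0.00969), all higher, and not CAMSAP1, RAB3IP, CAMSAP3, RELA or TNFAIP3. The causes of these shifts were not tested.

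Grouped by the genotype field, the log2 fold change changed sign for CAMSAP1 (-0.09), RELB (-0.29), ICAM1 (-0.06), FSTL3 (-0.16), TNFRSF12A (-0.14), IL31RA (-0.28), NFKBIA (-0.27), SHISAL1 (-0.26), NFKB2 (-0.20), MAP1A (0.07), LAMA4 (0.30), LRATD2 (0.16), UNC5C (0.09), METTL7A (0.38), PCYOX1L (0.01), GPRIN3 (0.24), PURPL (0.07), BIRC3 (-0.02), SDC4 (-0.3), TNFRSF9 (-1.03), OAS3 (-0.03), APOL6 (-0.72), WWC1 (-0.01), DUSP8 (-0.14), IER3 (-0.27), MAP2 (0.59), CLIP1 (-0.01), SESN1 (0.21), PPP1R15A (-0.48), LAMB3 (-0.00345), THBS2 (-0.44), NEFL (0.01), SLIT2 (0.09), ROBO1 (0.09), LCP1 (-0.47), CAMSAP2 (-0.12), NFKB1 (-0.06), RELA (-0.12), TNFAIP3 (-0.73), B2M (-0.17), CD83 (-0.08), CD44 (-0.55), MICA (-0.15) and PLA2G4C (-0.38). Grouped by the titles it did so for CAMSAP1 (-0.03), RAB3IP (0.03), CCBE1 (0.18), PURPL (0.03), CAMSAP3 (-0.06), NFKB1 (-0.01), RELA (-0.04) and TNFAIP3 (-0.40). With upper-quartile scaling CAMSAP1 was at -0.00491, without control replicate 2 RAB3IP was at 0.03, and without siCAMSAP1 replicate 1 RAB3IP was at 0.03 and CAMSAP3 at -0.12 (range -0.12 to 0.35 over the libraries left out). No called gene changed sign in the other settings, and a change was hardly possible with groups that were separate in all 210. The smallest change called was 0.35 on the log2 scale, and a gene missing the threshold is not shown to be level.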

Other observations

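Of the 210 called genes 147 were on none of the 41 lists. Among them, named after their values were seen, ANXA3, an annexin that binds phospholipids in the presence of calcium, had 30.5 and 29.5 CPM in control, 50.7 and 54.4 in siCAMSAP1 and 38.6 and 41.6 in siRAB3IP (log2 fold change 0.81 ± 0.09, adjusted p = 0.00119 by edgeR's quasi-likelihood test). SLC7A2, a transporter of cationic amino acids, had 114 and 122 CPM in control, 66.2 and 68.2 in siCAMSAP1 and 95.5 and 101 in siRAB3IP (-0.81 ± 0.08, adjusted p = 0.000928). In both genes siCAMSAP1 lay outside the range of the 4 other libraries, and it differed from siRAB3IP (adjusted p = 0.0137 and 0.00141). PLA2G4C, a cytosolic phospholipase that overlaps PLA2G4C-AS1, had 1.55 and 1.23 CPM in control, 4.56 and 5.61 in siCAMSAP1 and 5.95 and 6.47 in siRAB3IP (1.87 ± 0.20, adjusted p = 0.00119). ANXA3, SLC7A2 and PLA2G4C kept their calls when any 1 library was left out.

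NPPB, the gene of B-type natriuretic peptide, was low and uneven, with 0.348 and 0.532 CPM in control, 1.42 and 4.34 in siCAMSAP1 and 0.555 and 0.985 in siRAB3IP (2.69 ± 0.50, adjusted p = 0.0274). Leaving out either control library or siCAMSAP1 replicate 2 ended its call (adjusted p 0.0655 to 0.18) and by limma-voom (0.114). Pairs of called genes with no other tested gene starting between them moved the same way. They were STAT3 and CAVIN1 (both higher, starts 89.1 kb apart), LINC02593 and SAMD11 (both lower) and PSMB9 and TAP1 (both higher). Whether such pairs are more than expected among 210 calls was not tested.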
